A study of Mus musculus with 2 samples.

Results

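Macrophages that present antigen on MHC class II and are not dividing were described in CD45+ leukocytes of B16 tumours, a transplanted mouse melanoma, by single-cell RNA sequencing of 3' transcript ends. Each transcript was counted once through a unique molecular identifier (UMI). A cell was taken as a C1q macrophage when its C1qa, C1qb and C1qc UMIs summed to at least 10, its Cd3d, Cd3e and Cd3g UMIs to at most 1, and fewer than 3 of the genes Hspb1, Pgf, Sdc1, Rhov and Arg2 were detected. It was taken as non-cycling when its Mki67, Top2a, Birc5 and Ube2c UMIs summed to less than 3. Of the 288 cells that passed, the 144 whose H2-Aa, H2-Ab1 and H2-Eb1 UMIs made up at least the pooled median share of the cell's UMIs, 0.736%, were the MHC class II high macrophages, out of 2611 cells in all. The MHC class II and C1q genes chose these cells, so their levels are a description and support nothing.

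The Nrp1L/L library came from Nrp1L/L Foxp3Cre-YFP mice and the control library from Foxp3Cre-YFP mice, with 1 library per genotype. All were female C57BL/6 mice, 5 weeks old, whose tumours were taken on day 14 after inoculation. Both genotypes carry the Cre recombinase with its fluorescent tag at Foxp3, the gene of regulatory T cells, so floxed Nrp1 should be disrupted in those cells and not in macrophages. How many tumours went into a library is not given in the sources used here. Effects of genotype, of single mice or tumours and of library preparation cannot be told apart. There is therefore no test of genotype and no p-value, and intervals (95%) cover counting error only. The series title sets the question of how regulatory T cells, interferon-gamma from CD8 T cells and the lipid regulator SREBP1 bear on suppressive tumour macrophages.

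MHC class II molecules are pairs of alpha and beta chains that show peptides from ingested proteins to CD4 T cells. The invariant chain Cd74 escorts them, H2-DM loads the peptide, and the transactivator Ciita switches on their genes through a shared promoter block that includes a Y box. C1q starts the classical complement pathway and marks mature tissue and tumour macrophages. Interferon-gamma raises MHC class I and II presentation, guanylate-binding proteins and the chemokines Cxcl9 and Cxcl10 in macrophages.

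There were 52 MHC class II high macrophages in the Nrp1L/L library and 92 in the control library. Their depth was similar, at 9306.5 UMIs and 1832 genes for the median Nrp1L/L member and 9667 UMIs and 1950.5 genes for the median control member, whereas all cells had medians of 5334 UMIs in Nrp1L/L and 8079.5 UMIs in control. Over all members this gave 488627 UMIs in Nrp1L/L and 1009795 in control. Levels below are CPM, the UMIs of a gene summed over a library's members and scaled to their total. The libraries shared 3 cell barcodes, and 0 of these were members. The 3 members just inside the limit had MHC class II shares of 0.738%, 0.746% and 0.783%, and the 3 cells just outside had 0.733%, 0.690% and 0.672%. Between 0.588% and 0.919%, a narrow band around the limit, lay 13 members, 3 from Nrp1L/L and 10 from control, and 10 MHC class II low cells. At the C1q limit, 4 members had 10 to 14 C1q UMIs, 0 in Nrp1L/L and 4 in control.

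The members' MHC class II genes reached like levels in the libraries. H2-Aa stood at 8614 CPM in Nrp1L/L and 8782 CPM in control, H2-Ab1 at 9823 CPM in Nrp1L/L and 9959 CPM in control, and H2-Eb1 at 6557 CPM in Nrp1L/L and 6808 CPM in control. H2-Aa, H2-Ab1 and H2-Eb1 lie on chromosome 17 (GRCm38), H2-Aa at chr17:34282744-34287823 on the minus strand. C1qa, the A chain of C1q, stood at 3661 CPM in Nrp1L/L and 3025 CPM in control, C1qb at 4838 CPM in Nrp1L/L and 4312 CPM in control, and C1qc at 3264 CPM in Nrp1L/L and 2481 CPM in control. The MHC class II share of single members ran from 0.854% to 6.57% with a median of 2.24% in Nrp1L/L, and from 0.738% to 6.90% with a median of 2.12% in control. The ranges overlapped over nearly their whole length.

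The 150 bases before the RefSeq start (GRCm38.p6) of H2-Aa (chr17:34287824-34287973, minus strand) and H2-Eb1 (chr17:34305717-34305866, plus strand) are printed because their products define these cells. Capitals mark the Y box core ATTGG on either strand.
H2-Aa promoter: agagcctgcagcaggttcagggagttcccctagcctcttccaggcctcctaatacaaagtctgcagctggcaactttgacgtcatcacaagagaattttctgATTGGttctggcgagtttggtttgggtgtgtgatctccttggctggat
H2-Eb1 promoter: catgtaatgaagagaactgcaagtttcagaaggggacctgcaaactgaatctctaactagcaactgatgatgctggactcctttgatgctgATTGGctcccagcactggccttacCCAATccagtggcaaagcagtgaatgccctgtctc
The core begins 48 bases before the start in H2-Aa. In H2-Eb1 it begins 59 bases before the start, with a second match on the other strand 35 bases before it. Within 250 bases before to 50 after the start, ATTGG was found in 60.0% of 20 promoters of 14 MHC class II partner genes. It was found in 37.4% of all 32851 promoters. Over the other gene lists used below, the share ran from 0.0% for Fc gamma receptors to 79.2% for cell cycle genes. The core is thus not particular to this pathway.

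**Figure D1:**
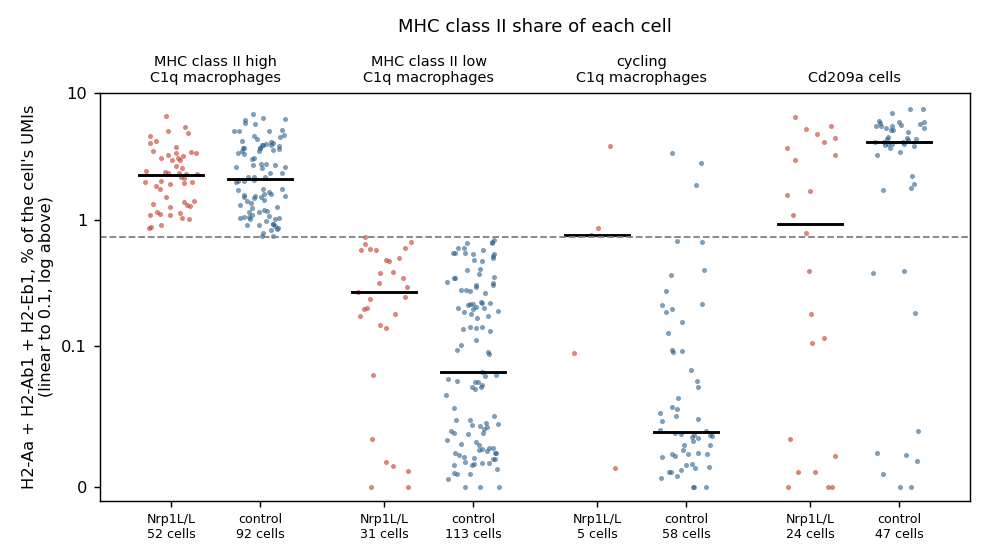
MHC class II share of each cell, as the percent of its UMIs from H2-Aa, H2-Ab1 and H2-Eb1 (linear to 0.1, logarithmic above), for 4 classes of cells in the Nrp1L/L and control libraries. Points are cells, bars are medians and the dashed line is the limit of 0.736% that chose the members. The medians of the members, 2.24% in Nrp1L/L and 2.12% in control, lie close together.

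The label was checked against other genes. The macrophage list held 13 genes, the C1q genes among them. Of these 13, 12 were found in Nrp1L/L members, where Cx3cr1 was at 0, and 13 in control members. The pan-macrophage genes Adgre1 (F4/80), Csf1r (the receptor for colony-stimulating factor) and Cd68 (a lysosomal glycoprotein) were all found in both libraries. Cd68 stood at 1232 CPM in Nrp1L/L members and 1081 CPM in control members, and Csf1r at 160 CPM in Nrp1L/L and 182 CPM in control. The efferocytosis receptor Mertk, a gene of resident macrophages, gave only 4 UMIs in Nrp1L/L and 10 in control. Monocyte genes were present too: Ly6c2, which marks inflammatory monocytes, stood at 2632 CPM in Nrp1L/L members and 1509 CPM in control members. Ccr2, the receptor that brings monocytes out of the marrow, stood at 170 CPM in Nrp1L/L and 256 CPM in control. The C1q genes chose these cells, so the check of the macrophage label rests on the pan-macrophage genes alone. The same cells also carry monocyte transcripts.

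Some defining markers of dendritic cells, the other MHC class II high cells of a tumour, were at 0. Flt3 and Zbtb46 gave 0 UMIs in members of both libraries, and so did Xcr1, the marker of the cross-presenting type. Other markers were found: 5 of 8 type 1 markers in Nrp1L/L members and 4 in control members. Clec9a, Batf3 and Wdfy4 were among them in both libraries. Of the 7 type 2 markers, 4 were found in Nrp1L/L members and 5 in control members. Cd209a, a lectin of monocyte-derived and type 2 dendritic cells, gave 0 UMIs in Nrp1L/L members and 32 in control members, of which 87.5% lay in 1 cell. The 7 markers of type 2 dendritic cells summed to 143 CPM in Nrp1L/L members and 240 CPM in control members. Cells chosen for Cd209a (at least 3 Cd209a UMIs, C1q under 10, 71 cells) are high in 1 of these 7 by that choice, so they were compared over the other 6. These 6 summed to 143 CPM in Nrp1L/L members against 793 CPM in Nrp1L/L Cd209a cells, and to 208 CPM in control members against 1545 CPM in control Cd209a cells. The type 1 list summed to 794 CPM in Nrp1L/L members and 416 CPM in control members, mostly through Naaa, a lysosomal amidase that macrophages also make, at 643 CPM in Nrp1L/L and 321 CPM in control. In the Cd209a cells the type 1 list summed to 496 CPM in Nrp1L/L and 417 CPM in control, so on this list the Nrp1L/L members stood above them. Mature dendritic cell markers summed to 73.7 CPM in Nrp1L/L members and 51.5 CPM in control members. Neutrophil genes S100a8 and S100a9 and the B cell genes Cd79a and Ms4a1 gave 0 UMIs in both. The neutrophil list was found through Csf3r only, with 13 UMIs in Nrp1L/L members and 29 in control members. The B cell list was found through Cd79b only, with 9 UMIs in Nrp1L/L members and 12 in control members.

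Lymphocyte transcripts were found at low levels and more in Nrp1L/L. T cell markers outside the rule (5 of 6 found in each library, Cd4 at 0) summed to 63.4 CPM in Nrp1L/L members and 23.8 CPM in control members, and NK cell markers to 113 CPM in Nrp1L/L and 38.6 CPM in control, while Prf1 and Eomes were at 0 in both. Nkg7, a granule protein of killer cells, gave 31 UMIs in Nrp1L/L members and 23 in control members, at 63.4 CPM in Nrp1L/L and 22.8 CPM in control, when all cells outside the 4 classes had 3776 CPM in Nrp1L/L and 1509 CPM in control. At least 1 UMI of a T or NK cell marker was found in 42 of 52 Nrp1L/L members (80.8%) and 45 of 92 control members (48.9%). Haemoglobin genes gave 0 UMIs in Nrp1L/L members and 64.4 CPM in control members. Melanoma genes summed to 51.2 CPM in Nrp1L/L and 45.6 CPM in control. At least 1 UMI of Dct, Mlana, Pmel, Tyr or Tyrp1, a part of that list, was present in 9 of the 52 Nrp1L/L members and in 17 of the 92 control members. In an alternative run, 26 Nrp1L/L cells and 8 control cells were left out with Scrublet, a doublet caller, none of them members. Its own threshold marked 3 Nrp1L/L cells (0.231%) and 8 control cells (0.611%). That call was kept in control, whereas in Nrp1L/L the 26 cells with the highest scores were left out.

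Nrp1 itself, the co-receptor neuropilin-1, was found in members of both libraries, with 22 UMIs (45.0 CPM) in Nrp1L/L and 63 UMIs (62.4 CPM) in control. The log2 ratio was -0.47 (-1.24 to 0.25). Tags at the 3' end can lie outside a floxed stretch, and Cre should be silent in macrophages, so these counts check nothing of the deletion.

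C1q macrophages as a whole took up less of the Nrp1L/L leukocytes, and a larger portion of those present were MHC class II high. The members were 4.0% of Nrp1L/L cells (exact interval 3.0 to 5.21) and 7.02% of control cells (5.70 to 8.54), a difference of -3.03 points (Newcombe interval -4.80 to -1.28). MHC class II low macrophages were 2.38% of Nrp1L/L cells and 8.63% of control cells, and cycling C1q macrophages were 0.384% of Nrp1L/L cells and 4.43% of control cells. Within the non-cycling C1q macrophages, 62.7% were MHC class II high in Nrp1L/L (52 of 83) and 44.9% in control (92 of 205), a difference of 17.8 points (5.03 to 29.5). With cycling cells included the share was 59.1% in Nrp1L/L and 35.0% in control. Because the median was pooled over both libraries, one share ties the other: with each library cut at its own median the difference is 0.36 points by construction. A share of CD45+ cells also depends on how many lymphocytes the library held.

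Against the MHC class II low macrophages, the members stood higher in the MHC class II pathway. The split itself used this contrast, so the values only describe the cells. Of 3745 genes with at least 20 UMIs over the high and low cells of each library, 95 were at least 1.5-fold higher in both libraries (2.54%) and 137 lower in both (3.66%), while 135 were past 1.5-fold in opposite directions (3.60%). The 10 genes named as higher by the naming rule were Cd74, H2-DMb1, H2-DMa, Ass1, Il1b, Naaa, Ncf4, Tuba1a, Psme1 and Pla2g7. Cd74 stood at 16690 CPM in Nrp1L/L members against 3617 CPM in Nrp1L/L low cells (log2 2.21), and at 17080 CPM in control members against 2213 CPM in control low cells (log2 2.95). H2-DMb1, the beta chain of the peptide loader, stood at 1144 CPM in Nrp1L/L members against 444 CPM in Nrp1L/L low cells (log2 1.36), and at 1094 CPM in control members against 222 CPM in control low cells (log2 2.30). Cd74 and the H2-DM genes thus stood higher in the members in both libraries, with a larger ratio in control. The low cells were unlike by the rule's own genes, with a median MHC class II share of 0.266% in Nrp1L/L and 0.0813% in control. The part of this in the larger ratio was not tested.

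Genes outside that pathway differed too. Il1b, the inflammatory cytokine, stood at 1074 CPM in Nrp1L/L members against 579 CPM in Nrp1L/L low cells, and at 1534 CPM in control members against 797 CPM in control low cells. With every cell thinned to 2500 UMIs before the rule, and its C1q and cycling limits lowered, the Il1b ratio nearer 0 was -0.27. Ass1, which makes argininosuccinate in the arginine cycle, had log2 ratios of high over low of 1.45 in Nrp1L/L and 1.34 in control. Lower in the members were Dab2, a clathrin adaptor of scavenging macrophages, Ccl2, the monocyte-attracting chemokine, and Trem2, the lipid receptor. Dab2 stood at 79.8 CPM in Nrp1L/L members against 199 CPM in Nrp1L/L low cells, and at 313 CPM in control members against 530.5 CPM in control low cells. Trem2 stood at 192 CPM in Nrp1L/L members against 316 CPM in Nrp1L/L low cells, and at 245 CPM in control members against 465 CPM in control low cells. Ccl2 stood at 4799 CPM in Nrp1L/L members against 7003 CPM in Nrp1L/L low cells, and at 6563 CPM in control members against 8890 CPM in control low cells. Among cells with no T or NK cell UMI the Ccl2 ratio nearer 0 was 0.18, on the other side of 0. Dab2 and Trem2 were thus lower in MHC class II high cells of either library. Ctsd and Hexa, lysosomal enzymes, were among the 10 lower genes as well.

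Between the genotypes, the 12 genes named as higher in Nrp1L/L members held 6 interferon-gamma response genes, led by Fam26f. Those named as lower included the matrix genes Fn1 and Thbs1, the scavenging genes Dab2 and Gpnmb, and the chemokine Cxcl2. All genes of the rule were set aside. Of 5253 other genes with at least 20 UMIs, 916 were at least 1.5-fold higher in Nrp1L/L members (17.4%) and 1049 lower (20%). With the counting interval also clear of 0, 542 were higher (10.3%) and 529 lower (10.1%). The median log2 ratio over all genes was -0.03. Of 4785 genes measured in MHC class II high and low cells alike, 269 were higher in both (5.62%), 300 lower in both (6.27%) and 317 past 1.5-fold in opposite directions (6.62%). Without the cell holding most UMIs of each gene in each library, 545 genes were at least 1.5-fold higher and 1131 lower, and the median over all genes was -0.14.

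The 12 higher genes were chosen by how far the nearer bound of the interval lay from 0. Fam26f (also called Calhm6, ENSMUSG00000046031, chr10:34126067-34127984), a membrane channel protein of activated macrophages, stood at 411 CPM in Nrp1L/L members and 62.4 CPM in control members (log2 2.72, 2.31 to 3.15). Serpina3g, a serine and cysteine protease inhibitor, stood at 256 CPM in Nrp1L/L and 43.6 CPM in control (2.55, 2.05 to 3.08). Socs1, which brakes interferon-gamma receptor signalling, stood at 182 CPM in Nrp1L/L and 39.6 CPM in control (2.20, 1.65 to 2.78). These belong to the interferon-gamma list, as did Gbp2b, Il18bp and Iigp1 among the 12.

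Fgl2, a prothrombinase and soluble regulator of T cells, stood at 579 CPM in Nrp1L/L members and 186 CPM in control members (log2 1.64, 1.37 to 1.91). Fcgr4, the activating receptor for IgG2, stood at 772 CPM in Nrp1L/L and 263 CPM in control (1.55, 1.32 to 1.78). C3, the central complement protein, stood at 96.2 CPM in Nrp1L/L and 18.8 CPM in control (2.35, 1.56 to 3.2). All 3 stood higher in Nrp1L/L also without the cell with most of their UMIs. Ly6i, a Ly6 family surface protein, stood at 465 CPM in Nrp1L/L and 120 CPM in control, while in MHC class II low cells it stood at 53.3 CPM in Nrp1L/L and 44.9 CPM in control. Cnn3, an actin-binding calponin, and Vcpkmt, a methyltransferase of the chaperone VCP, completed the 12.

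Among the 12 lower genes, Fn1, fibronectin, stood at 18.4 CPM in Nrp1L/L members and 176 CPM in control members (log2 -3.26, -4.41 to -2.30). Thbs1, the matrix protein thrombospondin-1, stood at 38.9 CPM in Nrp1L/L and 198 CPM in control (-2.35, -3.11 to -1.67). Dab2 stood at 79.8 CPM in Nrp1L/L and 313 CPM in control (-1.97, -2.49 to -1.49), and Gpnmb, a glycoprotein of lipid-laden macrophages, at 22.5 CPM in Nrp1L/L and 109 CPM in control (-2.28, -3.32 to -1.38). These 4 genes were lower in the MHC class II low cells as well, at log2 -2.37 for Fn1, -2.45 for Thbs1, -1.42 for Dab2 and -3.03 for Gpnmb.

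Clec4n, the fungal sensor dectin-2, stood at 254 CPM in Nrp1L/L members and 793 CPM in control members (log2 -1.64). Maf, a transcription factor of alternatively activated macrophages, stood at 18.4 CPM in Nrp1L/L and 87.2 CPM in control (-2.24), but at 78.2 CPM in Nrp1L/L and 83.8 CPM in control in MHC class II low cells. Cxcl2, a neutrophil attractant, stood at 1169 CPM in Nrp1L/L and 2758 CPM in control (-1.24, -1.37 to -1.11). Fh1, the fumarate hydratase of the citric acid cycle, stood at 24.6 CPM in Nrp1L/L and 91.1 CPM in control. Eef1e1, Uck2, Luc7l3 and Fam136a were the other 4 named. Among the 10 Nrp1L/L and 47 control members with no T or NK cell UMI, some of these ratios moved by over 1.5-fold. Among the lower genes the log2 ratio there was -0.13 for Cxcl2, -1.06 for Clec4n, -1.02 for Maf, -0.81 for Uck2, -1.72 for Luc7l3, -1.17 for Eef1e1 and -2.14 for Fn1. Among the higher genes it was 2.12 for Fam26f, 1.32 for Ly6i and 3.34 for Cnn3. Without the cell with most UMIs of the gene in each library, Uck2 had a ratio of -3.25, Fn1 of -3.85 and Fam136a of -2.95. With every cell thinned to 2500 UMIs before the rule, the ratio was -1.51 for Thbs1, -1.03 for Dab2, -1.23 for Fh1 and 1.47 for Vcpkmt.

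**Figure D2:**
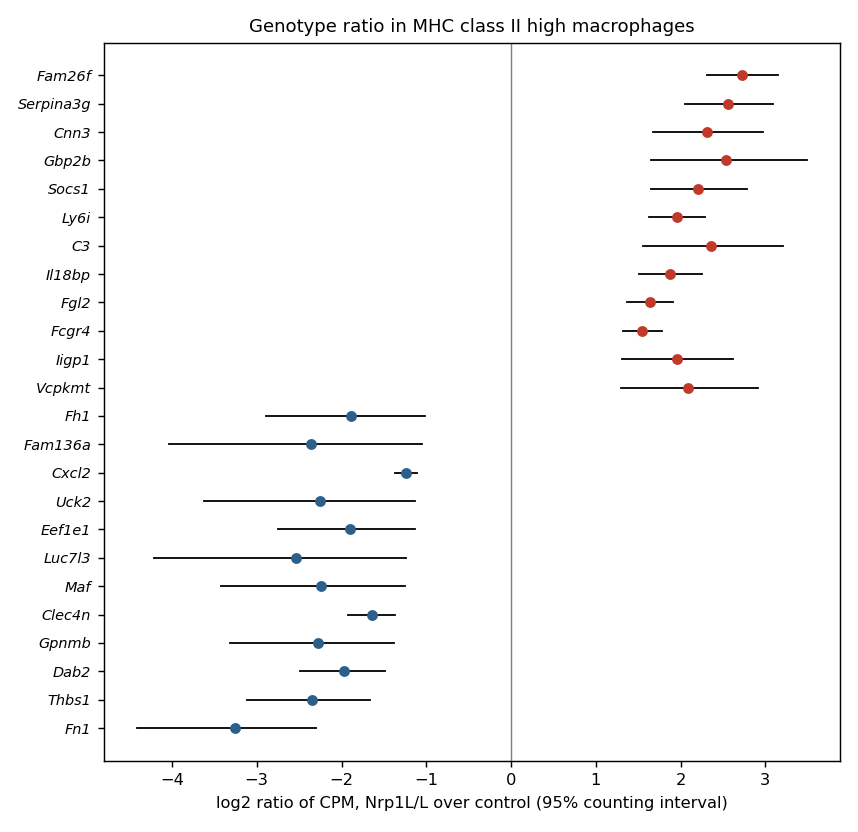
Log2 ratio of CPM, Nrp1L/L over control, in MHC class II high macrophages for the 12 higher and 12 lower genes of the naming rule, ordered by the bound nearer 0. Points are ratios between the libraries and lines are 95% counting intervals, from 2.72 for Fam26f at the top to -3.26 for Fn1 at the bottom.

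The interferon-gamma response list had the highest median of the 25 gene lists. Of 29 genes, 23 had at least 20 UMIs in members, of which 17 were at least 1.5-fold higher in Nrp1L/L and 0 lower, beside 17.4% and 20% of all genes. Counts of the other lists in members are to be read against the same shares of all genes. The median log2 ratio was 1.38 (0.67 to 1.95). Summed over the list, the level was 5024 CPM in Nrp1L/L members and 2093 CPM in control members. Gbp2, a guanylate-binding protein, stood at 504 CPM in Nrp1L/L and 172 CPM in control (log2 1.55). Igtp and Irgm1, GTPases that act on vacuoles of microbes, had ratios of 1.49 and 1.23. Cd274, which encodes PD-L1, stood at 94.1 CPM in Nrp1L/L and 101 CPM in control (-0.10, -0.64 to 0.41), and Irf1 at 223 CPM in Nrp1L/L and 174 CPM in control (0.36, -0.00 to 0.71), so neither was clear of 0.

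Cxcl9 and Cxcl10, which attract CXCR3+ T cells, were carried by few cells. Cxcl9 stood at 375 CPM in Nrp1L/L members and 173 CPM in control members (log2 1.11, 0.80 to 1.42), but 60.6% of the control UMIs came from 1 cell. Without the top cell of each library the ratio was 2.14. It was found in 19 of 52 Nrp1L/L members and 8 of 92 control members. Cxcl10 stood at 473 CPM in Nrp1L/L and 318 CPM in control (0.57, 0.32 to 0.82), in 24 Nrp1L/L members and 33 control members.

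Per cell, the list took a median of 0.406% of UMIs in Nrp1L/L members (0.0132% to 1.92%) and 0.140% in control members (0.0157% to 0.776%). Of the 52 Nrp1L/L members, 46 lay above the control median, and the ranges overlapped. The difference was not shown to be particular to these cells. In MHC class II low cells the list's median log2 ratio was 1.41, with 17 of 21 genes at least 1.5-fold higher, beside 19.3% of all genes there. In Cd209a cells the summed level was 6534 CPM in Nrp1L/L and 1813 CPM in control, and in the cells outside the 4 classes 3404 CPM in Nrp1L/L and 2002 CPM in control. Lymphocyte markers moved the same way: T cell markers summed to 63.4 CPM in Nrp1L/L members and 23.8 CPM in control members, and NK cell markers to 113 CPM in Nrp1L/L and 38.6 CPM in control. Among members with no T or NK cell UMI, 10 in Nrp1L/L and 47 in control, the list's median ratio was 1.41.

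Ifng itself was all but absent, with 3 UMIs in members of each library, against 402 CPM in Nrp1L/L and 111 CPM in control in the cells outside the 4 classes. The list of interferon receptors and signalling covers type I interferon as well as interferon-gamma. Its genes (9 measured of 11) had a median ratio of 0.16 (-0.39 to 1.05), with 3 at least 1.5-fold higher and 0 lower. The interval of this median spans 0.

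**Figure D3:**
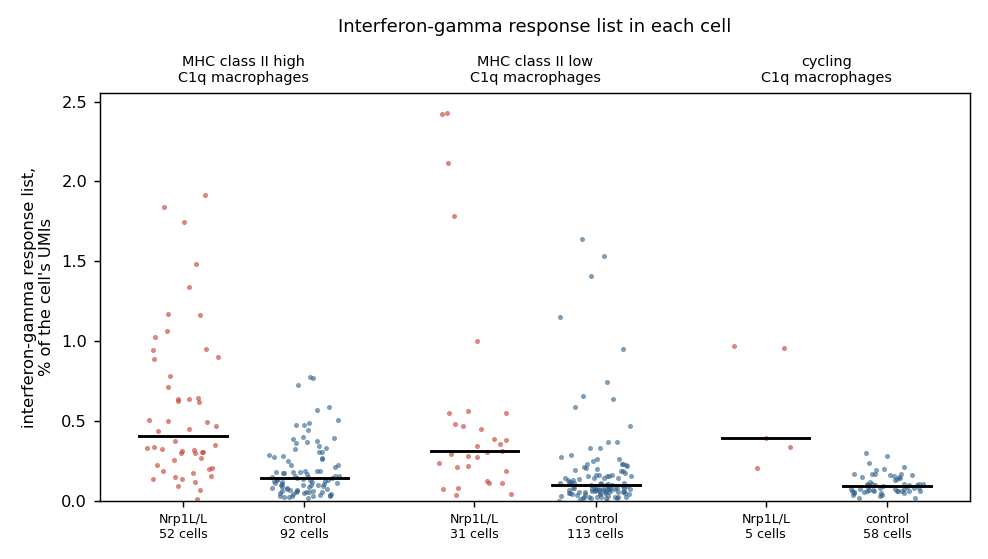
Share of each cell's UMIs from the interferon-gamma response list in MHC class II high, MHC class II low and cycling C1q macrophages of the Nrp1L/L and control libraries. Points are cells and bars are medians, which in MHC class II high cells are 0.406% in Nrp1L/L and 0.140% in control.

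Promoters of 3 genes among the 12 higher are printed, 150 bases before the RefSeq start (GRCm38.p6), because their motifs are those bound in interferon responses. Capitals mark the interferon response element core (GAAA, any 2 bases, GAAA) in Fam26f (chr10:34127973-34128122, minus strand) and Socs1 (chr16:10785537-10785686, minus strand). In Serpina3g (chr12:104235997-104236146, plus strand) they mark the gamma-activated site TTCNNNGAA, which reads the same on both strands.
Fam26f promoter: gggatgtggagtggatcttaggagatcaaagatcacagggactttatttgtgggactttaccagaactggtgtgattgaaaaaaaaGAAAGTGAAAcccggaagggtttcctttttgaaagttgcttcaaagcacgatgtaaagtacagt
Socs1 promoter: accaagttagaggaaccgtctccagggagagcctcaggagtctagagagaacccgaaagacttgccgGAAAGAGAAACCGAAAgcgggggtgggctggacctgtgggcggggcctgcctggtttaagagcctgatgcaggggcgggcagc
Serpina3g promoter: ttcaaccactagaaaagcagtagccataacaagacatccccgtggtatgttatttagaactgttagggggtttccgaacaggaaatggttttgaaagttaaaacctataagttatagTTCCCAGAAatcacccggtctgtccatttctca
Socs1 holds 2 overlapping matches, drawn as 1 run, which begin 83 and 77 bases before the start. The match begins 64 bases before the start in Fam26f and 33 before it in Serpina3g. Matches were sought on both strands. Of 27 promoters of 22 list genes, the interferon response element core was found in 51.9% and TTCNNNGAA in 44.4%, beside 3.44% and 8.3% of all promoters. The list is one of known interferon targets, so these shares describe the choice of its genes.

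Antigen presentation on MHC class I stood higher in Nrp1L/L by small ratios. Of 22 measured genes of the list, 10 were at least 1.5-fold higher and 0 lower, beside 17.4% and 20% of all genes, with a median log2 ratio of 0.57 (0.35 to 0.69). B2m, the light chain, stood at 9776 CPM in Nrp1L/L members and 7336 CPM in control members (0.41), and H2-K1, a heavy chain, at 2460 CPM in Nrp1L/L and 1722 CPM in control (0.51). Tap1, the peptide transporter, stood at 360 CPM in Nrp1L/L and 193 CPM in control (0.90), and Psmb9, an immunoproteasome subunit, at 686 CPM in Nrp1L/L and 373 CPM in control (0.88). Of the 22 genes, 19 had ratios above 0. In MHC class II low cells the list's median was 0.77.

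Of 26 type I interferon response genes, 12 were at least 1.5-fold higher and 1 lower, beside 17.4% and 20% of all genes, with a median of 0.46 (0.17 to 0.63). Isg15, a ubiquitin-like protein, stood at 1807 CPM in Nrp1L/L members and 1340 CPM in control members (0.43), and Ifit3, which binds viral RNA complexes, at 317 CPM in Nrp1L/L and 206 CPM in control (0.62). The median was smaller than that of the interferon-gamma list.

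The partners of MHC class II showed no common direction. Of 13 measured genes, 3 were at least 1.5-fold higher in Nrp1L/L and 2 lower, with a median of 0.20 (-0.26 to 0.65). Cd74 stood at 16690 CPM in Nrp1L/L members and 17080 CPM in control members (log2 -0.03, -0.07 to 0.01), and H2-DMa at 1191 CPM in Nrp1L/L and 1060 CPM in control (0.17). Ctss, the protease that trims the invariant chain, stood at 6183 CPM in Nrp1L/L and 4315 CPM in control (0.52, 0.45 to 0.59). Ciita gave 3 UMIs in Nrp1L/L members and 18 in control members, a log2 ratio of -1.54 with an interval of -3.94 to 0.24. In the MHC class II low cells, where the rule set a ceiling instead, Cd74 stood at 3617 CPM in Nrp1L/L and 2213 CPM in control.

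Costimulators and checkpoint ligands had a median of 0.17 (-0.12 to 0.79), with 4 of 13 at least 1.5-fold higher and 1 lower, beside 17.4% and 20% of all genes. Among members with no T or NK cell UMI the median was 0.89, over the list genes that still had at least 20 UMIs. Cd40, the receptor for T cell help, stood at 145 CPM in Nrp1L/L members and 84.2 CPM in control members (0.79, 0.31 to 1.26). Pdcd1lg2, which encodes PD-L2, gave 21 UMIs in Nrp1L/L and 16 UMIs in control, or 43.0 CPM in Nrp1L/L and 15.8 CPM in control (1.44, 0.43 to 2.47). Cd86, a ligand of CD28, stood at 213 CPM in Nrp1L/L and 189 CPM in control (0.17, -0.19 to 0.52).

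Chemokines stood on both sides of 0. Of 17 measured genes outside the interferon list, 5 were at least 1.5-fold higher and 7 lower in Nrp1L/L members, beside 17.4% and 20% of all genes, and the median was -0.41 (-0.77 to 0.60). The median turned to 0.22 with the MHC class II limit raised to keep the highest of 3 equal groups of cells, to 0.09 in members thinned to 2500 UMIs and to 0.06 among members with no T or NK cell UMI. Ccl5, a T and NK cell attractant that lymphocytes also make, stood at 489 CPM in Nrp1L/L members and 130 CPM in control members (1.92, 1.6 to 2.23). Ccl8 stood at 1036 CPM in Nrp1L/L and 447 CPM in control (1.21, 1.03 to 1.40), in 18 Nrp1L/L members and 21 control members, and Ccl4 at 3264 CPM in Nrp1L/L and 2148 CPM in control (0.60). The neutrophil attractants Cxcl1 and Cxcl3 were almost all counted in control members. Cxcl1 gave 0 UMIs in Nrp1L/L members and 62 in control members, and Cxcl3 gave 1 UMI in Nrp1L/L members and 223 in control members, of which 84.8% lay in 1 cell. Pf4, platelet factor 4, stood at 77.8 CPM in Nrp1L/L and 619 CPM in control (-2.99), with 42.4% of the control UMIs from 1 cell and a ratio of -2.85 without the top cells. Ccl2 stood at 4799 CPM in Nrp1L/L and 6563 CPM in control (-0.45, -0.52 to -0.38). The T and NK cell marker sums given above moved the same way as Ccl5, and their part in it was not tested.

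Cytokines and growth factors had 4 higher and 4 lower of 13, with a median of -0.43 (-0.69 to 0.95). Il1b stood at 1074 CPM in Nrp1L/L members and 1534 CPM in control members (-0.51, -0.66 to -0.37), and its antagonist Il1rn at 164 CPM in Nrp1L/L and 310 CPM in control (-0.92, -1.29 to -0.56). Il18, activated with Il1b by the inflammasome, stood at 98.2 CPM in Nrp1L/L and 55.5 CPM in control (0.82, 0.24 to 1.41). Members of the Il1 family thus stood on either side of 0.

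Complement genes outside C1q had 2 higher and 2 lower of 7. Cfb, factor B of the alternative pathway, stood at 321 CPM in Nrp1L/L members and 143 CPM in control members (1.17, 0.84 to 1.51), and Cfp, properdin, at 307 CPM in Nrp1L/L and 554 CPM in control (-0.85, -1.12 to -0.59). C3, given above at log2 2.35, stood at 14.2 CPM in Nrp1L/L and 25.1 CPM in control in MHC class II low cells. Of the 6 Fc gamma receptors, Fcgr4 alone was past 1.5-fold. Fcgr1, of high affinity, had a ratio of 0.38, and Fcgr2b, the inhibitory one, -0.36.

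Genes of alternatively activated and tumour-promoting macrophages included more that were lower in Nrp1L/L than higher. At 1.5-fold, 10 of the 22 measured were lower (45.5%) and 3 higher (13.6%), beside 20% and 17.4% of all genes. Their median was -0.38 (-1.35 to 0.11), not clear of 0, and -1.10 among members with no T or NK cell UMI. Mrc1, the mannose receptor, stood at 20.5 CPM in Nrp1L/L members and 55.5 CPM in control members (-1.44, -2.58 to -0.45). Mmp12, macrophage elastase, gave 1 UMI in Nrp1L/L members and 163 in control members, of which 36.2% lay in 1 cell. Spp1, the matrix cytokine osteopontin, stood at 1353 CPM in Nrp1L/L and 2675 CPM in control (-0.98), but 59.2% of the control UMIs came from 1 cell and the ratio without the top cells was -0.63. Arg1, which depletes arginine, stood at 1860 CPM in Nrp1L/L and 1452 CPM in control (0.36, 0.24 to 0.48), on the other side of 0.

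Of the classically activated list, 3 of 8 measured genes were at least 1.5-fold higher and 0 lower, beside 17.4% and 20% of all genes. Its median was 0.23 (-0.54 to 2.15), not clear of 0. In MHC class II low cells its median was -0.40, with 2 of 7 genes higher and 2 lower, beside 19.3% and 23.3% of all genes there. Lists of lysosomal and uptake genes had intervals of the median that span 0. Of 27 cathepsin and lysosome genes 1 was at least 1.5-fold higher and 6 lower (median -0.15), and of 11 genes of apoptotic cell uptake 2 were higher and 1 lower (0.18). Among members with no T or NK cell UMI the median of the uptake list was -0.66. Lyz2, lysozyme, stood at 7527 CPM in Nrp1L/L members and 12100 CPM in control members (-0.69, -0.74 to -0.63). Cd14, the co-receptor for lipopolysaccharide, stood at 508 CPM in Nrp1L/L and 937 CPM in control (-0.88), within a list of pattern recognition receptors of which 5 of 19 were higher and 5 lower. Blvrb, which reduces biliverdin, stood at 780 CPM in Nrp1L/L and 275 CPM in control (1.5, 1.28 to 1.73), within a heme and iron list whose median was 0.01.

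Fatty acid synthesis genes under SREBP1 were barely measured in these cells. Srebf1, which encodes SREBP1, gave 6 UMIs in Nrp1L/L members and 11 in control members, at 12.3 CPM in Nrp1L/L and 10.9 CPM in control (log2 0.17, -1.55 to 1.73). Of the 16 listed genes, Acly, which makes acetyl-CoA from citrate, was the 1 with at least 20 UMIs, at 57.3 CPM in Nrp1L/L and 71.3 CPM in control (-0.32, -1.0 to 0.33). Without cells with a UMI of Dct, Mlana, Pmel, Tyr or Tyrp1 its ratio was -0.93. Fasn, fatty acid synthase, gave 1 UMI in Nrp1L/L and 7 UMIs in control, Acaca gave 0 in Nrp1L/L and 3 in control, and Scd2 gave 4 in Nrp1L/L and 15 in control. The list summed to 109 CPM in Nrp1L/L members and 129 CPM in control members. A change in this pathway was not detectable at this depth.

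Cholesterol genes under SREBP2 were better counted and stood lower in Nrp1L/L. At 1.5-fold, 11 of the 18 measured were lower and 0 higher, beside 20% and 17.4% of all genes. Their median was -0.68 (-1.18 to -0.33). Srebf2, which encodes SREBP2, gave 2 UMIs in Nrp1L/L members and 44 in control members (-3.41, -6.50 to -1.47). Hmgcs1, of the first steps of cholesterol synthesis, gave 8 UMIs in Nrp1L/L members and 39 in control members (-1.24, -2.55 to -0.12). Cyp51, a demethylase of the pathway, stood at 32.7 CPM in Nrp1L/L and 74.3 CPM in control (-1.18, -2.06 to -0.39). Each rests on few UMIs. In MHC class II low cells the median of 16 measured genes was 0.33, with 6 higher and 3 lower, beside 19.3% and 23.3% of all genes there.

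In lipid uptake, storage and efflux, 3 of 18 genes were higher and 4 lower, around a median of -0.29 (-0.35 to 0.15). Apoe, the lipid carrier, stood at 2525 CPM in Nrp1L/L members and 3108 CPM in control members (-0.30), and Fabp5, a fatty acid binding protein, at 956 CPM in Nrp1L/L and 1647 CPM in control (-0.79). Fatty acid oxidation had 0 of 14 higher and 4 lower (28.6%, beside 20% of all genes), with a median of -0.21. Oxidative phosphorylation had 0 of 30 higher and 1 lower, and glycolysis and hypoxia 2 of 22 higher and 2 lower, with medians of 0.01 and 0.00. The members' central energy genes were thus close to the median of all genes.

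Of cell cycle genes outside the rule, 0 of 13 measured were higher and 5 lower, with a median of -0.27, which turned to 0.18 in members thinned to 2500 UMIs. Immediate early and heat shock genes, which respond to handling of tissue, had 2 of 25 higher and 7 lower (median -0.13). Hspa1a, a heat shock chaperone, stood at 129 CPM in Nrp1L/L members and 1013 CPM in control members (-2.97), with 45.6% of the control UMIs from 1 cell and a ratio of -2.78 without the top cells. Fos stood at 2345 CPM in Nrp1L/L and 1723 CPM in control (0.44). Macrophage transcription factors had 5 of 17 higher and 4 lower (median 0.21).

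**Figure D4:**
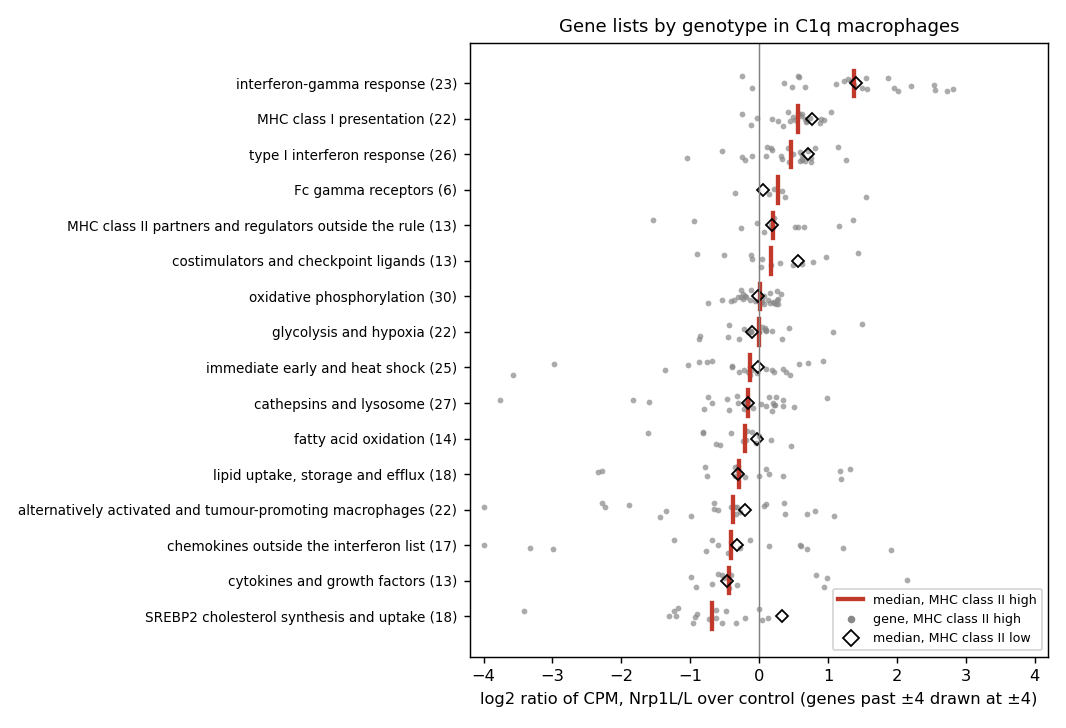
Log2 ratio of CPM, Nrp1L/L over control, for the measured genes of 16 lists in C1q macrophages, with the number of measured genes in brackets. Grey points are genes and red bars medians in MHC class II high cells, and open diamonds are medians in MHC class II low cells. The interferon-gamma list lies at 1.38 and the SREBP2 list at -0.68.

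Among the members, the cells with most MHC class II held less Arg1 and Ccl2 than the others in control, and about as much in Nrp1L/L. The 288 non-cycling C1q macrophages were split at quartiles of MHC class II share, at 0.139%, 0.736% and 2.17%. Quartiles 3 and 4, the members, held 25 and 27 Nrp1L/L cells, against 47 and 45 control cells. Arg1 stood at 1937 CPM in quartile 3 and 1791 CPM in quartile 4 of Nrp1L/L, against 2212 CPM in quartile 3 and 574 CPM in quartile 4 of control. Ccl2 stood at 4966 CPM in quartile 3 and 4648 CPM in quartile 4 of Nrp1L/L, against 9280 CPM in quartile 3 and 3425 CPM in quartile 4 of control. In control the low value was that of quartile 4 alone, since quartiles 1 and 2 stood at 2406 and 2234 CPM for Arg1 and at 8986 and 8738 CPM for Ccl2. Without the top cell of each quartile, Arg1 stood at 1477 CPM in quartile 3 and 1276 CPM in quartile 4 of Nrp1L/L, against 1901 CPM in quartile 3 and 472 CPM in quartile 4 of control.

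Spp1 ran in opposite directions over the members of the libraries, but on single cells. It stood at 669 CPM in quartile 3 and 1970 CPM in quartile 4 of Nrp1L/L, against 4322 CPM in quartile 3 and 772.5 CPM in quartile 4 of control. A single cell gave 62.1% of the UMIs in quartile 4 of Nrp1L/L, and another gave 68.4% of those in quartile 3 of control. Without the top cells the values were 429 CPM in quartile 3 and 770 CPM in quartile 4 of Nrp1L/L, against 1436 CPM in quartile 3 and 491 CPM in quartile 4 of control. The difference between the libraries over quartiles was not tested.

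In both libraries, quartile 4 held the highest Ly6c2 and the lowest Trem2. Ly6c2 stood at 2150, 2048, 2088 and 3122 CPM over the Nrp1L/L quartiles and at 696, 999, 1332 and 1714 CPM over the control quartiles. Trem2 stood at 298, 321.5, 362 and 38.9 CPM over the Nrp1L/L quartiles and at 510.5, 392.1, 297.5 and 183.5 CPM over the control quartiles. Quartile 1 held only 8 Nrp1L/L cells, so its values rest on few cells. The interferon-gamma list summed to 4686 and 5330 CPM in Nrp1L/L quartiles 3 and 4 and to 2062 and 2128 CPM in control quartiles 3 and 4.

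**Figure D5:**
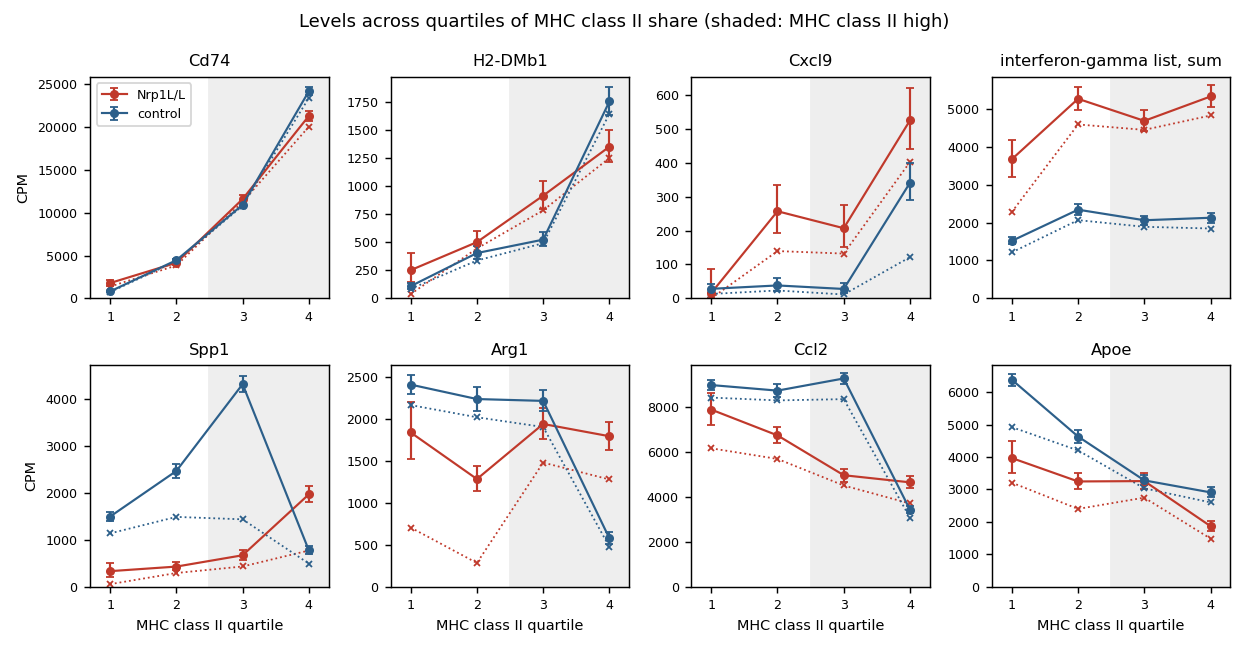
Levels in CPM across quartiles of MHC class II share in the Nrp1L/L and control libraries, with 95% Poisson intervals, quartiles 3 and 4 (shaded) being the members. Dotted lines with crosses leave out the cell with most UMIs in each quartile. Arg1 in control stands at 2212 CPM in quartile 3 and 574 CPM in quartile 4.

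Across single members, the MHC class II share and the Cd74 share had Spearman correlations of 0.69 over 52 Nrp1L/L cells and 0.87 over 92 control cells. The MHC class II share and the interferon-gamma list share had correlations of -0.15 in Nrp1L/L and 0.06 in control. Shares of 1 cell have the same total UMIs as their denominator, and cells of 1 library are not independent.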

How the data were processed

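Per the labels' protocols, CD45+ cells were sorted from B16 tumours, 2600 cells were loaded per library, and cDNA was amplified over 14 cycles on the 10x Genomics platform. The deposited matrices hold UMI counts for 27998 genes, made by the authors with Cell Ranger 1.3 on mm10, per the submitters' processing notes. UMI counts of a class of cells were summed within a library and divided by their total. Cells are not replicates, and with 1 library per genotype no test across libraries was possible, so no p-value is given. Ratios carry exact conditional binomial intervals, levels exact Poisson intervals and shares exact (Clopper-Pearson) intervals, all at 95% and for counting error only. A gene was measured with at least 20 UMIs over both libraries and called at 1.5-fold. A count of 0 was set to a floor of 3 counts over the group for ratios and list medians, whose intervals are order statistics over the genes of the list.

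The members and lists were chosen with earlier results of these data known. Named between genotypes were the 12 genes in each direction whose nearer interval bound lay farthest from 0, with at least 50 UMIs and at most 20% of the higher library's UMIs in 1 cell, leaving out rule, ribosomal, mitochondrial, Xist and antigen receptor genes. The same rule in both libraries gave 10 genes each way for high over low, and each list gave its most abundant member and up to 4 with the largest ratios. Other list genes named were chosen after their values were seen. Some genes are not reported here. Doublets were kept, and removed with Scrublet (scanpy 1.11.5) as an alternative. Other alternatives thinned cells to 2500 UMIs, used TMM (edgeR 4.0.16, R 4.3.3) or median-of-ratios scaling, or moved the limits of the rule. Where cells were thinned before the rule, its C1q and cycling limits were lowered as well. The minimum of UMIs was applied again within each alternative, so a list median there can rest on a different set of genes. Analyses ran in Python 3.11.15 with numpy 2.4.6, scipy 1.17.1 and pandas 2.3.3. The code was tested on simulated counts. Promoter sequences came from RefSeq on GRCm38.p6, where H2-Ab1 is named only, and gene positions from GENCODE M21, which matched 615 of 615 genes by Ensembl ID.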

Additional observations from a re-analysis of the deposited data

Results flagged for a closer look

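A gene was flagged when 2 of its ratios lay past 1.5-fold in opposite directions, both with counting intervals clear of 0. These differences were not tested. Of 154 genes compared between MHC class II high and low cells, 4 were flagged for Nrp1L/L over control. Among all 4785 genes measured in both, 317 (6.62%) were past 1.5-fold in opposite directions, whatever their intervals. The log2 ratio of Fh1 was -1.89 in MHC class II high cells and 1.14 in low cells. Acp5, a lysosomal acid phosphatase, had -1.83 in high cells and 0.95 in low cells. Hmgcs1 had -1.24 in high cells and 1.11 in low cells. Chil3, a chitinase-like protein of monocytes, had 1.08 in high cells and -1.45 in low cells. The Hmgcs1 value in high cells rests on 8 UMIs in Nrp1L/L members.

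Of 133 genes compared for high over low, 4 were past 1.5-fold in opposite directions in the libraries, both intervals clear of 0. Among all 3745 genes measured for this contrast, 135 (3.60%) were past 1.5-fold in opposite directions, whatever their intervals. Fh1 had -1.67 in Nrp1L/L and 1.36 in control. Il27, an interleukin subunit of myeloid cells, had -1.24 in Nrp1L/L and 1.52 in control. Hk1, a hexokinase, had -1.64 in Nrp1L/L and 0.80 in control. Chil3 had 0.79 in Nrp1L/L and -1.74 in control. The split by MHC class II used these cells, so the values are a description.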

How the results depend on the processing

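With each library cut at its own MHC class II median, the difference in the share of non-cycling C1q macrophages was 0.36 points. Counts of genes moved with the number of UMIs. With every cell thinned to 2500 UMIs before the rule, the C1q and cycling limits were lowered too, which gave 62 Nrp1L/L and 98 control members. In that setting 415 genes were at least 1.5-fold higher in Nrp1L/L members and 390 lower. Between MHC class II high and low cells, 35 were higher and 38 lower in both libraries. With the members thinned after the rule the same counts were 373, 373, 33 and 32. They were 404, 440, 35 and 34 at a minimum of 50 UMIs, and 1842, 2025, 307 and 501 at a minimum of 5 UMIs. TMM scaling left 90 genes lower in high than low cells. Il1b, high over low, was -0.27 in the library nearer 0 when cells were thinned before the rule. The cause of these shifts was not tested.

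Some settings were chosen after seeing the data. Without cells holding a T or NK cell UMI, 30 genes were higher and 15 lower in high than low cells, and Tuba1a had a ratio of -0.27. Without the cell with most UMIs of each gene, 545 genes were higher and 1131 lower in Nrp1L/L members, and 68 were lower in high than low cells. In these 2 settings the median over all genes was -0.13 and -0.14, against -0.03 as reported. A further one left out cells with 5 or more Hspa1a or Hspa1b UMIs. The interferon-gamma list median ran from 1.15 to 1.88 and the SREBP2 list median from -1.02 to -0.41 over all settings. The SREBP1 list gave no value in the thinned settings. Of the other list medians, 8 values in 6 lists left the interval of the reported median. Without cells holding a T or NK cell UMI they were 0.77 for MHC class I presentation, 0.89 for costimulators, -0.66 for apoptotic cell uptake, -0.39 for lipid uptake and 0.01 for the cell cycle. Each covers only the list genes that had at least 20 UMIs in that setting. The cell cycle list had 0.18 in thinned members, and glycolysis and hypoxia had 0.16 with each library cut at its own median and 0.13 with only the highest of 3 equal groups of cells kept. Medians of 12 of the 25 lists crossed 0 in at least 1 setting, and the reported median of each lay within 0.41 of 0. Of the 24 genes named between genotypes, 0 crossed 0 and 18 moved by over 1.5-fold in at least 1 setting. Fn1 had -5.12 and Fam136a -4.38 with each library cut at its own median, and Maf had -1.29 and Eef1e1 -2.89 with only that highest group. In thinned members Fam26f had 3.50, Serpina3g 3.58, Iigp1 2.59 and Gpnmb -2.98. No paired analysis was possible because each genotype has 1 library.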
